A study of Mus musculus with 27 samples.

Results

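The 10 genes described here carry out MHC class I antigen presentation: the heavy chains H2-D1, H2-K1 and H2-T23, the light chain B2m, the peptide transporter and loading genes Tap1, Tap2 and Tapbp, and the immunoproteasome subunits Psmb8, Psmb9 and Psmb10. They were taken as every probe to which the platform's annotation gives one of these symbols, which was 22 probes of 45281 on the array and 10 genes of 19057 with a symbol. Of the 22 probes, 1 B2m probe was detected on 0 arrays. The other 21 were kept, having passed a detection p-value of 0.05 on 6 or more of the 9 arrays in 1 group or more, so all 10 genes were measured.

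Gene expression was measured on Illumina bead arrays in the left lung lobe of male C57BL/6 X BALBc fetuses at day 18 of gestation. In the EG in vitro group, blastocysts derived in vitro had been placed in pseudo-pregnant females. In the EG in vivo group the placed blastocysts had been derived in vivo, and Control fetuses had grown without transfer in females that ovulated naturally. Each group held 3 pools with 3 technical arrays each, and the labels give neither the number of fetuses in a pool nor how days were counted in recipients. Both transfer groups were set against the same 3 Control pools, so the 2 comparisons with Control share them.

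Class I molecules carry peptides from inside the cell to its surface, where cytotoxic T cells and natural killer cells read them. Peptides are cut by the proteasome, pumped into the endoplasmic reticulum by the transporter that Tap1 and Tap2 form, and fitted, with the help of tapasin, the product of Tapbp, into a heavy chain paired with B2m. Interferons are known to raise the whole set of genes through STAT and IRF factors, and in adult lung the endothelium and leukocytes are known for high class I levels.

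By RefSeq (build GRCm38.p6), 8 of the 10 genes lie on chromosome 17, B2m lies on chromosome 2 and Psmb10 on chromosome 8. RefSeq promoter windows, from 250 bases before to 50 bases after a start, were found for 9 genes, not for Tap2. The 250 bases before the start are printed for H2-D1, H2-K1, H2-T23 and B2m, since these hold the enhancer motif known from class I genes or an interferon-type motif. The bases between Psmb9 and Tap1 are printed because the 2 genes start back to back there. Capitals mark every match, on either strand, to the motifs searched: the ISRE-like motif, which spans 10 bases and is the target of interferon-activated IRF and STAT complexes, the GAS motif (TTCNNNGAA), the target of STAT dimers, the CCAAT box (CCAAT), the CRE core (TGACG), and a pair of NF-kB motifs. These are the kB motif of the H2-K type, a palindrome known from the class I enhancer, which is the run of 11 capitals in H2-D1 and H2-K1, and a second kB form, found in B2m as its second run of capitals.
H2-D1, chr17:35262844-35263093, plus strand: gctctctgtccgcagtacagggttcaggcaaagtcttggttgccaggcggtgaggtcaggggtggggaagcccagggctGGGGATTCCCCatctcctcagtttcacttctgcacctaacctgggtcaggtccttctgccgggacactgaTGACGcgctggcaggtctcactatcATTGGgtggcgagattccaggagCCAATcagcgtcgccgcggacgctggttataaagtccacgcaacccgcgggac
H2-K1, chr17:34000334-34000583, minus strand: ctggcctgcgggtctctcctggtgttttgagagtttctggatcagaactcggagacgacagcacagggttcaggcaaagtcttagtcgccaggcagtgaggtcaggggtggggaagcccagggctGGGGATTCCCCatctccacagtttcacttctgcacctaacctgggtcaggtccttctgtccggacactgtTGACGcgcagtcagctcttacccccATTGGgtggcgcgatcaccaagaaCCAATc
H2-T23, chr17:36032702-36032951, minus strand: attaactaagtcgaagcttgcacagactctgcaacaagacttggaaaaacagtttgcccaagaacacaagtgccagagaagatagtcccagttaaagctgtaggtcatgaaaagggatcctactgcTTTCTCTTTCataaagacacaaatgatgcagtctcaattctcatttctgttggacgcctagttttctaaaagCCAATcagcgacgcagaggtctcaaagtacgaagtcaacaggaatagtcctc
B2m, chr2:122147437-122147686, plus strand: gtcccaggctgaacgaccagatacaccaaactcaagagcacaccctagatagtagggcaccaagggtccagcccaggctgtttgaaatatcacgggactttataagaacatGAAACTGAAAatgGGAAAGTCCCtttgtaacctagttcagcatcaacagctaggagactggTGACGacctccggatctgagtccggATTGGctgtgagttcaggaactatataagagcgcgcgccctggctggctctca
Psmb9 to Tap1, chr17:34187331-34187555, plus strand: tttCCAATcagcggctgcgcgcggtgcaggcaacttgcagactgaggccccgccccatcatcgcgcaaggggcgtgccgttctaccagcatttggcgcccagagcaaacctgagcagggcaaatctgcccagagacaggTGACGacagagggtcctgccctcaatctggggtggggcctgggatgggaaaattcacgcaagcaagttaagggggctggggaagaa

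The kB motif of the H2-K type was in 10 of 32851 mouse promoter windows, or 0.0304%, and H2-D1 and H2-K1 were among them. It began 171 bases before the start of H2-D1 and 125 bases before the printed start of H2-K1. That start is 286 bases inside the RefSeq extent of H2-K1, and a second H2-K1 window, whose start is 272 bases inside it, held the same match. The second kB form was in 0.155% of windows and lay in B2m, 126 bases before its start on the opposite strand. The ISRE-like motif was in 3.44% of windows. H2-T23 held it 124 bases and B2m 139 bases before the start. Forms of this motif with other letters were not searched. The lack of a match in H2-D1, H2-K1 and other windows therefore does not show that they lack an interferon-type motif. Psmb8 held the GAS motif, found in 8.3% of windows, 97 bases before its start. The CCAAT box was in windows of 7 of 9 genes and in 37.4% of all windows, and the CRE core was in windows of 5 of 9 genes and in 20.8% of all windows. Between the starts of Psmb9 and Tap1, on opposite strands, lay 225 bases, and their windows shared 275 bases. The CCAAT box and the CRE core counted for both of these genes were the same bases, so these counts are not independent. These matches describe letters only, and binding was not measured.

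Arrays detected 19762 to 23449 probes each, and technical arrays of 1 pool correlated at 0.989 to 0.997 over all probes. Levels below are log2 intensities after background correction and quantile normalization, averaged over the 3 arrays of a pool, on a scale that ran from 4.33 to 15.11. Median raw signal was lowest in replicate 3 of every group, with 117 in EG in vitro, 122 in EG in vivo and 122 in Control, against 145 to 167 in the other 6 pools. The lung markers Nkx2-1, Foxf1, Tbx4 and Sftpc were detected on all 27 arrays. Each pool had signal from the Y-linked genes Uty, Kdm5d and Eif2s3y, but Xist, which marks female cells, stood at 10.90 in Control replicate 1, labelled male, against 4.56 to 5.45 in the other 8 pools. Results are therefore also given without Control replicate 1.

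In both transfer groups, class I presentation genes were lower than in Control lung, from the heavy chains through the transporter to the immunoproteasome. In EG in vitro, 9 of the 10 genes fell past an adjusted p of 0.05 (limma, Benjamini-Hochberg over all kept probes) and 0 rose. Of all 11945 genes tested, 23% fell and 21.8% rose. The median log2 difference over the 10 genes was -1.45 (range -2.52 to -0.86), against 0.03 over all genes tested. In EG in vivo, 8 of the 10 fell and 0 rose, where 21.2% of all genes fell and 22.2% rose. The median was -1.48 (range -2.45 to -0.68), against 0.04 over all genes. Without background correction the medians were nearer 0, at -0.89 (range -2.29 to -0.47) in EG in vitro and -0.85 (range -2.24 to -0.44) in EG in vivo, with as many genes past the threshold. With the authors' normalized matrix they were -0.88 in EG in vitro lung and -0.84 in EG in vivo lung. The 3 EG in vitro pools lay wholly below the 3 Control pools for all 10 genes, as they did for 28.8% of all genes. The 3 EG in vivo pools did so for 9 of the 10, against 25.2% of all genes, the exception being Psmb10. Over single probes, 18 of 21 fell in EG in vitro and 16 of 21 in EG in vivo, against 19.9% and 18.9% of the 22958 kept probes, and all 21 had a negative difference in both comparisons. Probes of the same gene are not independent. The Tap1 probe, the dimmest H2-K1 probe and the dimmer probes of Tapbp and Psmb8 passed the detection filter only through Control. The filter favoured a negative difference for them, so their part of the gene and probe counts is not independent support. Without Control replicate 1, 7 of the 10 fell in EG in vitro lung and 7 in EG in vivo lung, and all 10 differences stayed negative. The calls lost were those of H2-K1 in both comparisons (adjusted p = 0.117 in EG in vitro lung and 0.111 in EG in vivo lung) and of Psmb10 in EG in vitro. Most markers of leukocytes and endothelium, and 5 of 8 of epithelium, fell in the same comparisons, with the values given after the related gene lists, and their part in the class I differences was not tested. In lung lobes measured whole, fewer cells of a type and less RNA per cell cannot be told apart.

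**Figure D1:**
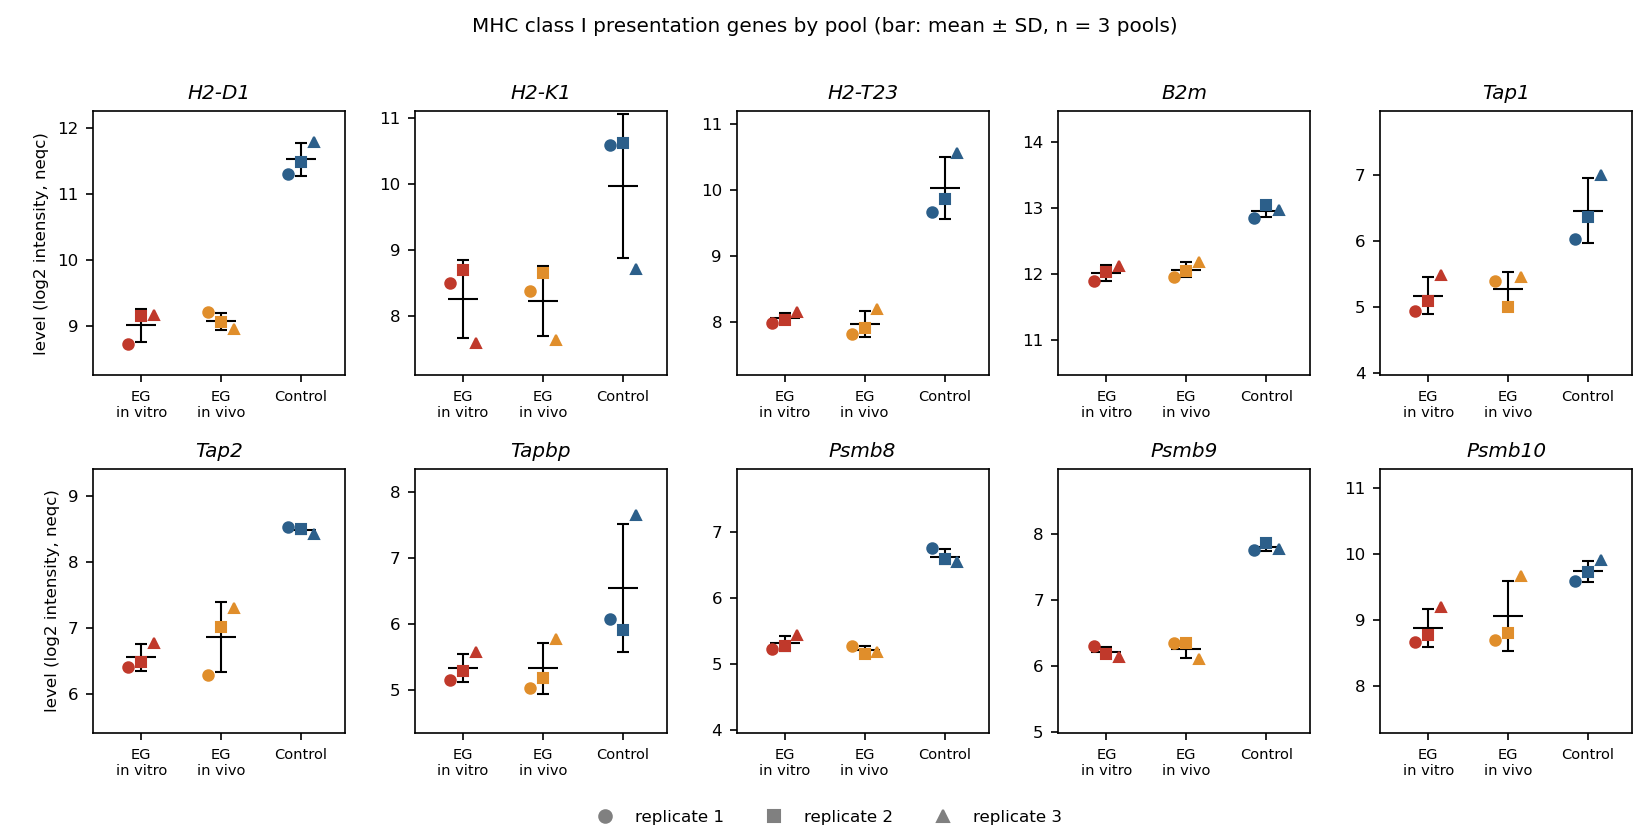
Level of each of the 10 genes (log2 intensity, y axis, each panel on its own range) in the 3 pools of EG in vitro, EG in vivo and Control (x axis); marker shapes give the replicate number, and bars the mean ± SD over 3 pools. Control pools sit above all EG in vitro pools in every panel and above all EG in vivo pools in every panel but that of Psmb10, where EG in vivo replicate 3 (9.66) lies above Control replicate 1 (9.58).

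The classical heavy chain H2-D1, which presents peptides to cytotoxic T cells, had the largest difference of the 10 genes, except in EG in vivo without Control replicate 3, where that of H2-K1 was larger (-2.38). Its level was 8.72, 9.14 and 9.16 in the EG in vitro pools, 9.21, 9.05 and 8.96 in the EG in vivo pools, and 11.30, 11.49 and 11.79 in the Control pools. The transfer groups overlapped each other and lay well below the lowest Control pool. H2-D1 fell by 2.52 ± 0.18 (SE, n = 3 pools per group; adjusted p = 1.78e-05), a 5.73-fold difference, in EG in vitro and fell by 2.45 ± 0.18 (adjusted p = 2.31e-05) in EG in vivo. Its 3 other probes differed by -2.72 to -2.43 in EG in vitro and by -2.67 to -2.43 in EG in vivo, all past the threshold. Of the genes tested, 1.98% had a more negative difference than H2-D1 in EG in vitro, as did 1.57% in EG in vivo.

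H2-T23 encodes Qa-1, a non-classical heavy chain that displays leader peptides of other class I chains to natural killer cell receptors. It measured 7.98, 8.02 and 8.15 in EG in vitro pools, 7.82, 7.90 and 8.20 in EG in vivo pools, and 9.67, 9.86 and 10.57 in Control pools. The pools of the transfer groups lay close together and every Control pool was above them. H2-T23 fell by 1.98 ± 0.23 in EG in vitro (adjusted p = 0.000217) and fell by 2.06 ± 0.23 in EG in vivo (adjusted p = 0.000195). Its 2 other probes also fell, with differences of -3.40 and -1.77 in EG in vitro and of -3.17 and -1.91 in EG in vivo.

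H2-K1 is the other classical heavy chain on this array. With each gene on its brightest probe, it had the largest standard errors of the 10 genes in the fit without a replicate block. Its brightest probe gave 8.49, 8.69 and 7.58 in EG in vitro pools, 8.38, 8.65 and 7.63 in EG in vivo pools, and 10.58, 10.62 and 8.70 in Control pools. Replicate 3 was the lowest pool in every group, and the lowest Control pool lay only just above the highest EG in vitro pool. The gene fell by 1.71 ± 0.55 in EG in vitro (adjusted p = 0.0351) and fell by 1.75 ± 0.55 in EG in vivo (adjusted p = 0.0334). Within replicate numbers 1, 2 and 3 the EG in vitro pool differed from its Control pool by -2.09, -1.92 and -1.12, and the EG in vivo pool by -2.20, -1.97 and -1.07. A second H2-K1 probe ran the other way between replicates, with 6.38, 6.80 and 7.03 in EG in vitro pools, 6.55, 6.60 and 7.46 in EG in vivo pools, and 7.02, 8.39 and 8.74 in Control pools. On that probe replicate 3 was the highest pool of each group, and EG in vitro differed by -1.31 (adjusted p = 0.0449) and EG in vivo by -1.18 (adjusted p = 0.0664). The third was detected on 2, 0 and 6 of 9 arrays of EG in vitro, EG in vivo and Control, and its differences of -0.66 in EG in vitro lung and -0.79 in EG in vivo lung did not pass.

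The H2-K1 call hung on single pools. In EG in vitro it was lost without EG in vitro replicate 1, 2 or 3, without EG in vivo replicate 1, and without Control replicate 1 or 2 (adjusted p = 0.0660, 0.0520, 0.110, 0.0527, 0.117 and 0.110 in that order). In EG in vivo it was lost without EG in vivo replicate 1 or 3 and without Control replicate 1 or 2 (adjusted p = 0.0700, 0.0975, 0.111 and 0.104 in that order). Class I heavy chains are close copies of one another and differ between mouse strains, and which allele or copy each probe matches was not analysed here.

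**Figure D2:**
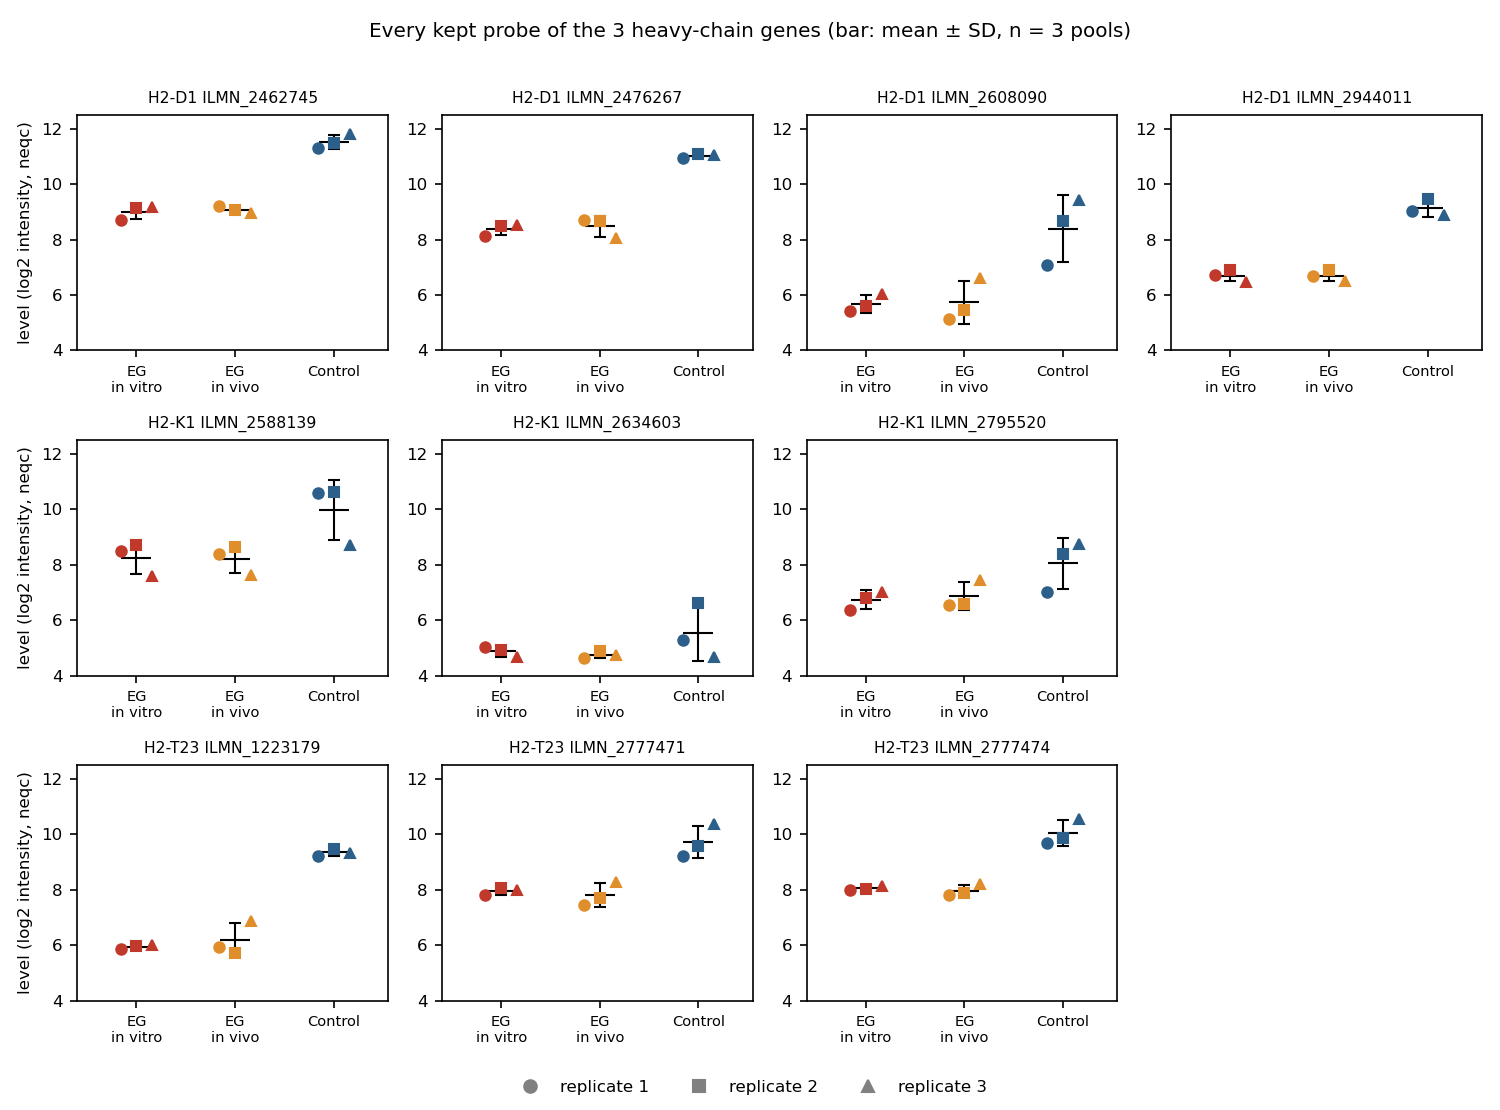
Level (log2 intensity, y axis) of every kept probe of H2-D1 (4 probes), H2-K1 (3) and H2-T23 (3) in the pools of EG in vitro, EG in vivo and Control (x axis), with mean ± SD bars over 3 pools. All H2-D1 and H2-T23 probes set Control apart, while the H2-K1 probes order the replicates differently, with replicate 3 lowest on the brightest probe and highest on the second.

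B2m, the light chain that every class I heavy chain needs to reach the surface, had, with Psmb8 and Psmb9, the smallest standard errors of the 10 genes, and smaller differences than the 3 heavy chains. It measured 11.90, 12.03 and 12.13 in EG in vitro pools, 11.96, 12.05 and 12.19 in EG in vivo pools, and 12.86, 13.05 and 12.98 in Control pools. The 3 Control pools lay above all 6 transfer pools, which overlapped each other. B2m fell by 0.94 ± 0.12 in EG in vitro (adjusted p = 0.000375) and fell by 0.89 ± 0.12 in EG in vivo (adjusted p = 0.000554). Its second detected probe fell by 0.90 in EG in vitro and fell by 0.93 in EG in vivo.

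Among the genes that bring peptides to the heavy chain, both transporter subunits fell. Tap2 measured 6.40, 6.48 and 6.78 in EG in vitro pools, 6.28, 7.02 and 7.30 in EG in vivo pools, and 8.53, 8.50 and 8.42 in Control pools, and was detected on every array. The 3 Control pools lay close together, and both transfer groups lay below them, overlapping each other. It fell by 1.93 ± 0.24 in EG in vitro (adjusted p = 0.000364) and fell by 1.62 ± 0.24 in EG in vivo (adjusted p = 0.00104). Tap1, the partner subunit, measured 4.94, 5.08 and 5.47 in EG in vitro pools, 5.39, 4.99 and 5.44 in EG in vivo pools, and 6.02, 6.35 and 6.99 in Control pools. Its transfer pools were near the detection limit, with 4 of 9 EG in vitro arrays and 3 of 9 EG in vivo arrays above background, against 9 of 9 in Control. With arrays below background set at the detection limit, Tap1 was at least 2.24-fold lower in EG in vitro and at least 2.04-fold lower in EG in vivo. The fit on measured signals gave -1.29 ± 0.26 in EG in vitro (adjusted p = 0.00474) and -1.18 ± 0.26 in EG in vivo (adjusted p = 0.00760).

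Tapbp, whose product tapasin holds the transporter and the empty heavy chain together, did not pass on its brightest probe. That probe gave 5.15, 5.29 and 5.57 in EG in vitro pools, 5.03, 5.18 and 5.77 in EG in vivo pools, and 6.07, 5.91 and 7.66 in Control pools, where replicate 3 stood well above the other Control pools. The differences were -1.21 ± 0.43 (adjusted p = 0.0542) in EG in vitro and -1.22 ± 0.43 (adjusted p = 0.0540) in EG in vivo. When the replicate number entered as a block, they passed at adjusted p = 0.00537 in EG in vitro lung and 0.00544 in EG in vivo lung. The second probe gave at most 5.29 in EG in vitro lung and 5.17 in EG in vivo lung and at least 6.27 in Control. On the background-corrected scale, with arrays below background set at the detection limit, it was 2.30-fold lower in EG in vitro and 2.29-fold in EG in vivo. In the limma fit on measured signals it passed in EG in vitro (adjusted p = 0.000188) and in EG in vivo (adjusted p = 0.000126). It was detected on 4 and 1 of 9 arrays of EG in vitro and EG in vivo, against 9 of 9 in Control. The filter thus kept it only through Control, which favours a lower value in the transfer groups, so its calls are not independent support. Without Control replicate 2, the brightest probe differed by -1.53 (adjusted p = 0.0318) in EG in vitro and by -1.54 (adjusted p = 0.0320) in EG in vivo.

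The immunoproteasome subunits are the catalytic subunits that replace Psmb6, Psmb7 and Psmb5 of the standard core proteasome in cells exposed to interferon and in immune cells. Psmb9, the counterpart of Psmb6, measured 6.30, 6.18 and 6.13 in EG in vitro pools, 6.34, 6.34 and 6.10 in EG in vivo pools, and 7.75, 7.86 and 7.76 in Control pools. The Control pools stood apart from the 2 transfer groups, which overlapped each other, and Psmb9 fell by 1.59 ± 0.12 in EG in vitro (adjusted p = 2.12e-05) and fell by 1.53 ± 0.12 in EG in vivo (adjusted p = 2.92e-05). Psmb8, the counterpart of Psmb5, measured 5.22, 5.26 and 5.44 in EG in vitro pools, 5.27, 5.15 and 5.18 in EG in vivo pools, and 6.75, 6.58 and 6.54 in Control pools. It was detected on 6 of 9 EG in vitro arrays, 4 of 9 EG in vivo arrays and 9 of 9 Control arrays. Psmb8 fell by 1.31 ± 0.11 in EG in vitro (adjusted p = 5.28e-05) and fell by 1.42 ± 0.11 in EG in vivo (adjusted p = 4.11e-05). With arrays below background set at the detection limit, it was 2.39-fold lower in EG in vivo on the background-corrected scale. Without background correction its difference in EG in vivo was -0.52. Its second probe was detected on 1 of 9 arrays in either transfer group and 6 of 9 in Control. With transfer arrays below background set at the detection limit and Control arrays left as measured, it was 1.27-fold lower in EG in vitro and 1.17-fold lower in EG in vivo. These values are on the background-corrected scale. In the limma fit on measured signals it passed in EG in vitro (adjusted p = 0.0439) and in EG in vivo (adjusted p = 0.0300). The filter kept this probe only through Control, which favours a lower value in the transfer groups. Its calls are therefore not independent support.

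Psmb10, the counterpart of Psmb7, measured 8.66, 8.76 and 9.20 in EG in vitro pools, 8.70, 8.80 and 9.66 in EG in vivo pools, and 9.58, 9.72 and 9.90 in Control pools. Replicate 3 was highest in each group, and in EG in vivo it reached into the Control range. Psmb10 fell by 0.86 ± 0.26 in EG in vitro (adjusted p = 0.0305). Its difference of -0.68 ± 0.26 in EG in vivo did not pass (adjusted p = 0.0726), but did in the fit blocked on replicate number (adjusted p = 0.00566) and without EG in vivo replicate 3 (-0.99, adjusted p = 0.00505). The EG in vitro call was lost without EG in vitro replicate 1 or 2 or Control replicate 1, 2 or 3 (adjusted p = 0.0991, 0.0927, 0.0541, 0.0678 and 0.0776 in that order). A second probe had differences of -0.94 in EG in vitro lung and -0.84 in EG in vivo lung that did not pass (adjusted p = 0.0869 and 0.123).

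**Figure D3:**
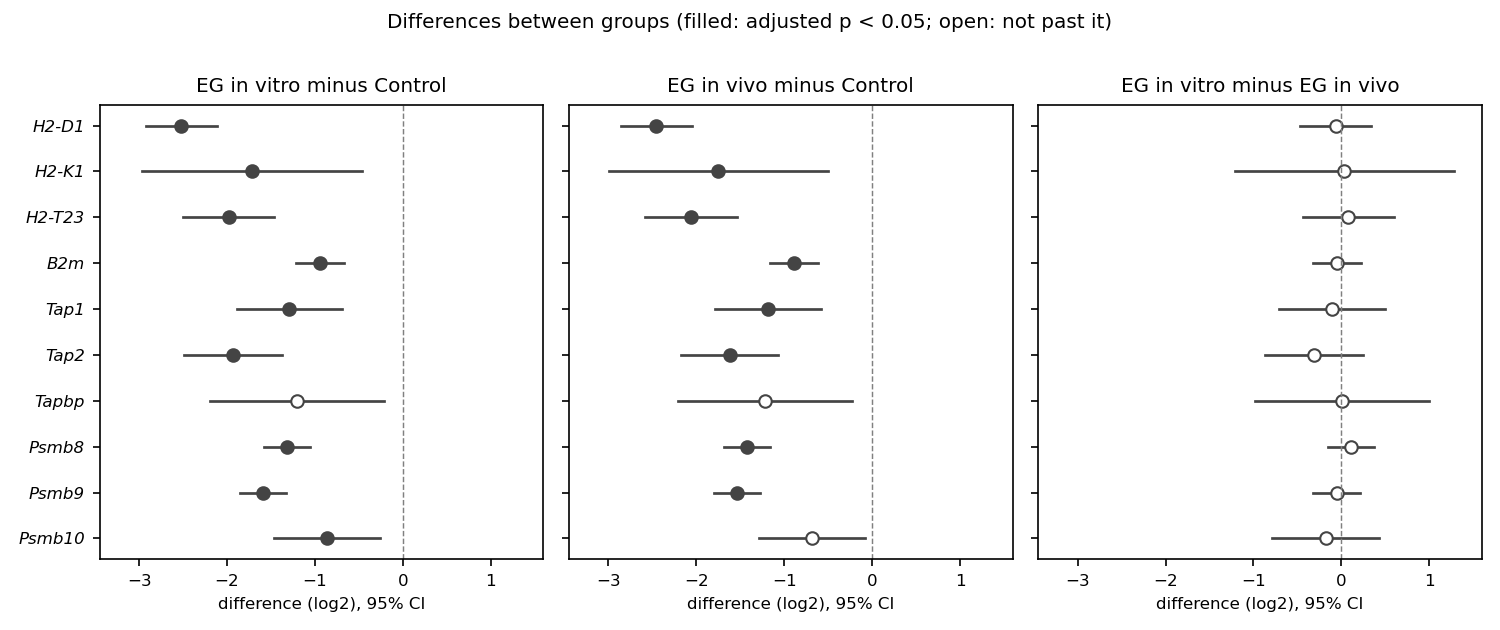
Log2 difference of each of the 10 genes (points, x axis) with its 95% confidence interval from limma, for EG in vitro minus Control, EG in vivo minus Control and EG in vitro minus EG in vivo; filled points have an adjusted p under 0.05. Points lie at -0.68 or below in both comparisons with Control, and within -0.31 to 0.11 between the transfer groups.

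No class I gene passed the test between the 2 transfer groups. For EG in vitro minus EG in vivo, 0 of the 10 genes passed, as did 0% of all genes in either direction (limma). At an unadjusted p under 0.05 there were 0 of the 10 and 153 of all genes, or 1.28%. The pools overlapped for all 10, whereas 4.24% of all genes had EG in vitro wholly below and 1.17% wholly above EG in vivo. The median difference was -0.05 (range -0.31 to 0.11), against -0.03 over all genes. The 95% intervals were narrowest for Psmb8 (-0.15 to 0.37), Psmb9 (-0.32 to 0.21) and B2m (-0.32 to 0.22). They were wider for H2-D1 (-0.47 to 0.34), H2-T23 (-0.44 to 0.60), Tap2 (-0.87 to 0.24), Tap1 (-0.71 to 0.49) and Psmb10 (-0.78 to 0.43), and widest for Tapbp (-0.98 to 1.00) and H2-K1 (-1.21 to 1.28). These intervals come from the fit without a replicate block, where the standard error of this difference was 0.55 for H2-K1 and 0.43 for Tapbp. With the block it was 0.21 for H2-K1 and 0.26 for Tapbp.

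The constitutive subunits of the core proteasome, the barrel that cuts proteins in every cell, were higher in the transfer groups. Of 14 such genes, 11 were measured. In EG in vitro 10 rose and 0 fell, with a median log2 difference of 0.60, and in EG in vivo 10 rose and 0 fell, with a median of 0.59. Of all genes tested, 21.8% rose in EG in vitro, with a median of 0.03, and 22.2% rose in EG in vivo, with a median of 0.04. When the test asked for a change beyond 1.2-fold, 4 rose in each comparison. Without Control replicate 1, 8 rose in EG in vitro lung and 9 in EG in vivo lung. The shares of all genes that rose in these alternative fits are not given here. Psmb1, a structural subunit, rose by 1.73 in EG in vitro (adjusted p = 2.18e-05) and by 1.55 in EG in vivo (adjusted p = 4.35e-05). Psmb5 measured 9.45, 9.43 and 9.31 in EG in vitro pools, 9.31, 9.33 and 9.44 in EG in vivo pools, and 8.74, 8.90 and 8.75 in Control pools. It rose by 0.60 in EG in vitro (adjusted p = 0.00238) and by 0.56 in EG in vivo (adjusted p = 0.00364), Psmb7 rose by 0.67 in EG in vitro (adjusted p = 0.0117) and by 0.59 in EG in vivo (adjusted p = 0.0221), and Psmb6 had differences of 0.70 in EG in vitro lung and 0.66 in EG in vivo lung that did not pass (adjusted p = 0.0510 and 0.0647).

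In each pool the level of the constitutive counterpart was subtracted from that of the immunoproteasome subunit, and the group means of this value were compared with Control. The log2 difference from Control was -1.91 in EG in vitro lung and -1.98 in EG in vivo lung for Psmb8 less Psmb5, -2.29 in EG in vitro lung and -2.19 in EG in vivo lung for Psmb9 less Psmb6, and -1.53 in EG in vitro lung and -1.27 in EG in vivo lung for Psmb10 less Psmb7. For all 3 pairs the transfer pools lay wholly below the Control pools in both comparisons. The exact permutation test gave p = 0.1 each time (two-sided, n = 3 pools per group), the smallest value that 3 pools against 3 allow.

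Some of the other class I chains fell too. Of 18 further heavy chains and class I-like genes, 10 were measured, 4 fell and 0 rose in each comparison with Control, with medians of -0.85 in EG in vitro lung and -0.67 in EG in vivo lung. Among all genes tested, the share that fell was 23% for EG in vitro minus Control, with a median of 0.03. For EG in vivo minus Control it was 21.2%, with a median of 0.04. Counts for this list and those below are to be read beside these shares. A list with a similar share of falling genes is not set apart from the whole array. H2-Q7, a chain of the Qa-2 type, fell by 1.70 in EG in vitro (adjusted p = 0.000286) and fell by 1.69 in EG in vivo (adjusted p = 0.000330). H2-M3, which presents formylated peptides, fell by 1.11 in EG in vitro (adjusted p = 0.00332) and fell by 1.14 in EG in vivo (adjusted p = 0.00319), and H2-Q8 fell by 1.00 in EG in vitro (adjusted p = 0.0493) and fell by 1.04 in EG in vivo (adjusted p = 0.0437), being detected there on 5 of 9 and 4 of 9 arrays. H2-Q8 passed the detection filter only through Control, which favours a lower value in the transfer groups. Fcgrt, the neonatal Fc receptor chain, which also pairs with B2m, fell by 1.05 in EG in vitro (adjusted p = 0.00952) and fell by 0.89 in EG in vivo (adjusted p = 0.0206). Without Control replicate 1, 5 of the 10 fell in each comparison, and in EG in vivo 2 fell without EG in vivo replicate 1 or 2 or Control replicate 3.

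Most chaperones and enzymes of loading and trimming, which serve many other proteins, did not pass. Of 6 measured loading and trimming genes, 1 fell and 0 rose in each comparison, with medians of 0.30 in EG in vitro lung and -0.05 in EG in vivo lung. The gene that fell was Tapbpl, a tapasin-related peptide editor, which fell by 0.91 in EG in vitro (adjusted p = 0.00159) and fell by 0.83 in EG in vivo (adjusted p = 0.00290). The following did not pass in either comparison. Calr, the chaperone calreticulin, had differences of 0.34 in EG in vitro lung and -0.19 in EG in vivo lung. Pdia3, the thiol oxidoreductase of the loading complex, had 0.29 in EG in vitro lung and 0.09 in EG in vivo lung. Erap1, which trims peptides, had -1.22 in EG in vitro lung and -0.53 in EG in vivo lung. Of 4 proteasome activator genes, Psme1, of the interferon-inducible activator, fell by 0.68 in EG in vitro (adjusted p = 0.0460) and had -0.59 in EG in vivo (adjusted p = 0.0800), while its partner Psme2 had 0.15 in EG in vitro lung and 0.40 in EG in vivo lung, which did not pass. Psme4, a separate activator, rose by 0.36 in EG in vitro (adjusted p = 0.0203) and by 0.36 in EG in vivo (adjusted p = 0.0198). Without Control replicate 3, 2 loading and trimming genes fell in EG in vitro and 2 activator genes rose in each comparison. In EG in vitro, 0 activator genes fell without EG in vitro replicate 1 or 2, EG in vivo replicate 1 or 2, or Control replicate 1 or 3, and 0 rose without EG in vitro replicate 1 or 3. In EG in vivo, 0 rose without EG in vivo replicate 1, and 1 fell without EG in vivo replicate 3.

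**Figure D4:**
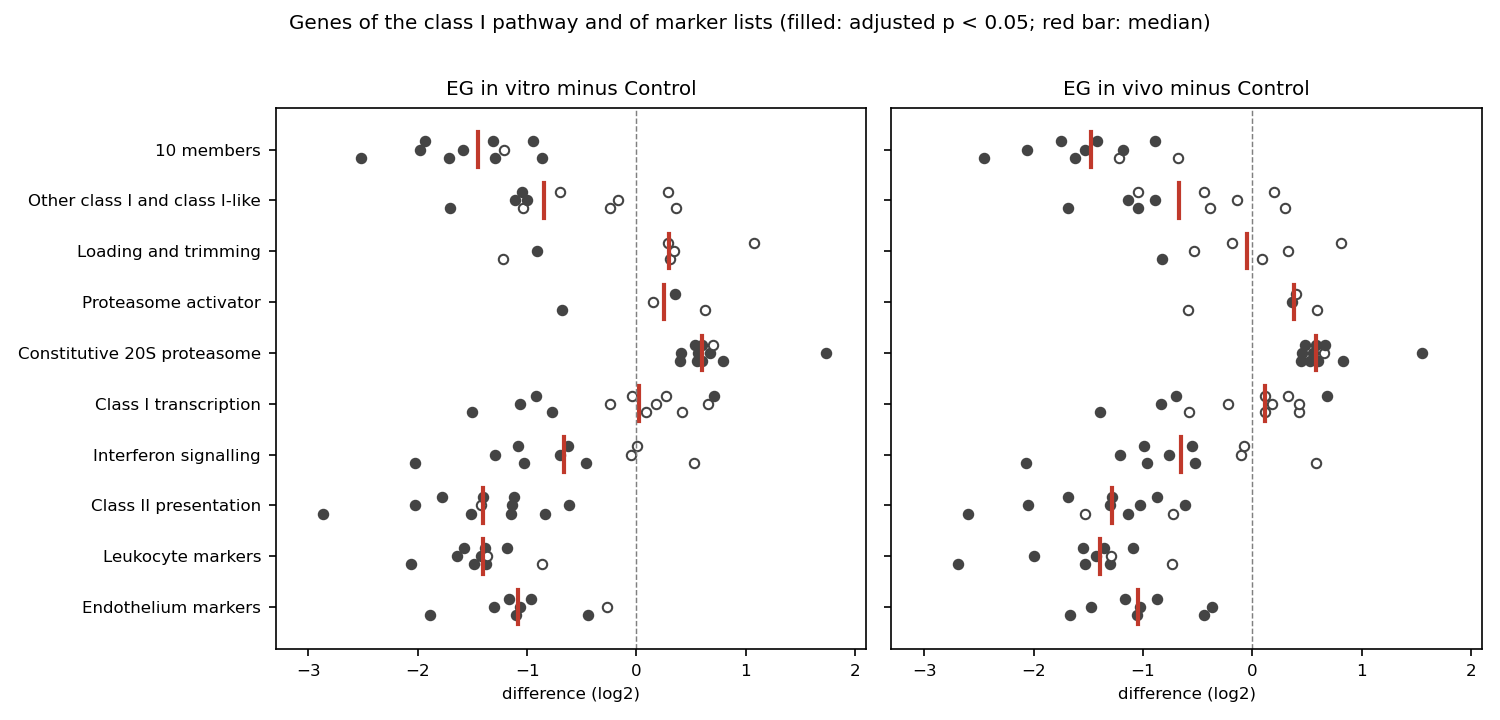
Log2 difference from Control (x axis) of single genes (points) in the class I set, related lists and marker lists (rows), for EG in vitro at left and EG in vivo at right; filled points have an adjusted p under 0.05 and red bars are list medians. The class I, class II and leukocyte rows have medians of -1.45, -1.40 and -1.40 in EG in vitro and -1.48, -1.29 and -1.39 in EG in vivo, and the constitutive proteasome row lies above 0.

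Regulators of class I transcription were mixed. Of 12 measured, 4 fell and 1 rose in EG in vitro, and 3 fell and 1 rose in EG in vivo, with medians of 0.02 in EG in vitro lung and 0.11 in EG in vivo lung. Irf1, an interferon-induced activator of class I and immunoproteasome genes, measured 10.29, 10.40 and 10.40 in EG in vitro pools, 10.49, 10.52 and 10.76 in EG in vivo pools, and 11.45, 11.56 and 11.26 in Control pools. It fell by 1.06 in EG in vitro (adjusted p = 0.000287) and fell by 0.84 in EG in vivo (adjusted p = 0.00116), and all pools of both transfer groups lay below the lowest Control pool. Irf8, a factor of myeloid cells, fell by 1.50 in EG in vitro (adjusted p = 0.000109) and fell by 1.40 in EG in vivo (adjusted p = 0.000183), and Irf2 fell by 0.77 in EG in vitro (adjusted p = 0.000938) and fell by 0.69 in EG in vivo (adjusted p = 0.00180). Relb, an NF-kB subunit, fell by 0.92 in EG in vitro (adjusted p = 0.0114) and had -0.58 in EG in vivo (adjusted p = 0.0745). The gene that rose, picked out after its value was seen, was Nfyb, a subunit of the factor that binds CCAAT boxes, by 0.71 in EG in vitro (adjusted p = 0.00145) and by 0.68 in EG in vivo (adjusted p = 0.00193). Nlrc5, the class I transactivator, was detected on 0 arrays. Without EG in vivo replicate 3, 5 of the 12 fell in EG in vivo and 2 rose in EG in vitro; 2 rose in each comparison without Control replicate 3, and 2 in EG in vivo without Control replicate 2.

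Of 10 measured genes of interferon reception and signalling, 7 fell and 0 rose in each comparison, with medians of -0.66 in EG in vitro lung and -0.65 in EG in vivo lung. Irf9, the DNA-binding subunit of the complex that acts on the ISRE, measured at most 8.22 in EG in vitro lung and 8.23 in EG in vivo lung and at least 10.01 in Control. It fell by 2.03 in EG in vitro (adjusted p = 1.53e-05) and fell by 2.07 in EG in vivo (adjusted p = 1.76e-05), and every Control pool was well above every transfer pool. Ifngr1, the ligand-binding chain of the interferon gamma receptor, fell by 1.29 in EG in vitro (adjusted p = 8.96e-05) and fell by 1.21 in EG in vivo (adjusted p = 0.000145). Stat2, the partner of Irf9, fell by 1.08 in EG in vitro (adjusted p = 0.00118) and fell by 0.96 in EG in vivo (adjusted p = 0.0024), and Socs3, a feedback inhibitor, fell by 1.03 in EG in vitro (adjusted p = 0.00111) and fell by 0.99 in EG in vivo (adjusted p = 0.00154). Without Control replicate 1, 6 of the 10 fell in EG in vitro lung and 5 in EG in vivo lung. Of the interferons themselves, 1 of 6 on the array was measured, Ifna1, with differences of 0.04 in EG in vitro lung and 0.12 in EG in vivo lung that did not pass, and Ifng was detected on 1 of 27 arrays at most.

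Class II presentation genes, which serve professional antigen-presenting cells, were lower as well. Of 11 measured, 10 fell in EG in vitro lung and 9 in EG in vivo lung and 0 rose, with medians of -1.40 in EG in vitro lung and -1.29 in EG in vivo lung. H2-Ab1, H2-Eb1, H2-Ea and H2-DMb2 passed the detection filter only through Control. That favours a negative difference, so their part of the counts and medians is not independent support. Cd74, the invariant chain, measured 6.15, 5.96 and 6.96 in EG in vitro pools, 6.34, 6.11 and 7.43 in EG in vivo pools, and 9.08, 8.81 and 9.80 in Control pools. It fell by 2.87 in EG in vitro (adjusted p = 0.000792) and fell by 2.60 in EG in vivo (adjusted p = 0.00146). H2-Aa fell by 2.02 in EG in vitro (adjusted p = 0.000321) and fell by 2.05 in EG in vivo (adjusted p = 0.000335), and H2-Ab1 fell by 1.12 in EG in vitro (adjusted p = 0.0183) and fell by 0.87 in EG in vivo (adjusted p = 0.0499). H2-Ea fell by 1.78 in EG in vitro and fell by 1.68 in EG in vivo (adjusted p = 0.00980 and 0.0131). H2-Ab1 was detected on 3 of 9 arrays in either transfer group, and H2-Ea on 5 of 9 in EG in vitro and 4 of 9 in EG in vivo. H2-Eb1 fell in EG in vitro (adjusted p = 0.00129) and in EG in vivo (adjusted p = 0.00302), being detected on 0 of 9 EG in vitro arrays and 3 of 9 EG in vivo arrays. Without Control replicate 1, 10 of the 11 fell in EG in vitro lung and 9 in EG in vivo lung. In EG in vitro 5 fell without EG in vitro replicate 1 or 2, and in EG in vivo 5 fell without EG in vivo replicate 1 or 2.

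Most leukocyte, macrophage and neutrophil markers were lower in the same comparisons, and a link with the class I genes was not tested. Of 10 leukocyte genes 8 fell in each comparison, and their summed intensity was 3382 to 3770 in EG in vitro, 3105 to 4391 in EG in vivo and 8422 to 10585 in Control. Itgb2, which fell in both comparisons, and Cd48, which did not pass, were kept by the detection filter only through Control. The broad leukocyte gene Ptprc had differences of -1.37 in EG in vitro lung and -1.29 in EG in vivo lung that did not pass (adjusted p = 0.179 and 0.206). Of 7 macrophage genes, 5 fell in EG in vitro lung and 6 in EG in vivo lung, with summed intensities of 2099 to 2349 in EG in vitro, 2134 to 2268 in EG in vivo and 4245 to 6296 in Control. All 5 neutrophil genes fell in both, with sums of 377 to 623 in EG in vitro, 437 to 602 in EG in vivo and 4128 to 5816 in Control. Among them Retnlg was detected on 0 of 9 arrays in either transfer group and on 9 of 9 in Control. Retnlg and Ngp passed the detection filter only through Control, which favours a lower value in the transfer groups. In EG in vitro 3 macrophage genes fell without EG in vitro replicate 1 or 2, and in EG in vivo 3 fell without EG in vivo replicate 1. Of the lymphocyte and thymus markers, 0 of 8 on the array were measured: Cd8a and Dntt were detected on 0 arrays and Klrb1c, the most often detected, on 12 of 27.

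Among cells of the lung itself, 7 of 8 endothelial genes fell in EG in vitro and 8 of 8 in EG in vivo, with summed intensities of 16049 to 17586 in EG in vitro, 17027 to 18123 in EG in vivo and 31768 to 40125 in Control. Kdr, which fell in EG in vivo only, passed the detection filter only through Control. Of 8 epithelial genes 5 fell in each comparison, with sums of 34269 to 36631 in EG in vitro, 36794 to 40384 in EG in vivo and 63090 to 67230 in Control. The 5 were Sftpb, Sftpc and Cldn18 of the alveolus and the keratins Krt8 and Krt18. The other 3 did not pass, with differences of -0.09 in EG in vitro lung and -0.10 in EG in vivo lung for Nkx2-1, of -0.34 in EG in vitro lung and -0.27 in EG in vivo lung for Cdh1, and of 1.32 in EG in vitro lung and 0.85 in EG in vivo lung for Epcam. Of 6 mesenchymal genes 2 fell in each comparison, and their sums overlapped between groups. Without Control replicate 1, 8 leukocyte, 6 macrophage, 5 neutrophil and 7 endothelial genes fell in each comparison. In EG in vivo 3 epithelial genes fell without EG in vivo replicate 1 or 2.

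Within groups, the 10 genes, each on its brightest probe, varied in different directions. Once each group's mean was taken away, the correlation between genes over the 9 pools had a median of 0.03 over the 45 pairs (range -0.94 to 0.97), and 25 pairs were above 0. H2-T23 and Tapbp were the most alike (0.97), and H2-K1 and Tapbp the most opposed (-0.94). On these probes replicate 3 was the highest pool of every group for Tapbp and the lowest for H2-K1. On the second probe of each gene it was the reverse, with replicate 3 lowest for Tapbp and highest for H2-K1. The order of the replicates thus depended on the probe, and the correlations were not computed for other probes. They are descriptions over 9 pools that share their arrays. Taken pool against pool within a replicate number, all 10 genes were lower in EG in vitro than in Control in each of the 3 numbers, with medians of -1.49, -1.50 and -1.57. All 10 were likewise lower in EG in vivo, with medians of -1.45, -1.46 and -1.45.

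The genes most like the set were found by Pearson correlation, over the 9 pools, with the mean of the 10 standardised levels. They were 4930523C07Rik (0.999), Ly6c1 (0.999), Vgll3 (0.998), Arhgef3 (0.998) and Nupr1 (0.998). Ly6c1, a surface protein of endothelium and monocytes, differed by -3.69 in EG in vitro lung and -3.43 in EG in vivo lung. Nupr1, a stress-induced nuclear protein, differed by -3.44 in EG in vitro lung and -3.33 in EG in vivo lung. High likeness was common, since 1956 of 11935 other genes, or 16.4%, had a correlation above 0.9.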

How the data were processed

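The authors deposited 2 tables for the 27 arrays. The non-normalized table holds the mean bead signal of each probe as intensity on a linear scale, with a detection p-value per array, per the file headers. The authors' processed matrix also holds intensity. Its column medians were 138.4 to 138.6, and its probe ranks were those of the first table. These do not settle how it was normalized or whether background was subtracted. The processed matrix served as an alternative. No source used here names the scanner software. Symbols came from the platform's annotation, which gives 34885 probes 1 symbol, 18 several and 10378 none, and 34807 probes matched RefSeq (GRCm38.p6) by gene identifier.

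The neqc function (limma 3.58.1, R 4.3.3, offset 16) subtracted background, quantile normalized and took log2. The filter left 22958 probes and 11945 genes, each gene given by its brightest kept probe. Technical arrays were averaged, and lmFit and eBayes over the 9 pools (residual degrees of freedom 6, prior 2.41) gave the 3 contrasts, adjusted by Benjamini-Hochberg over all kept probes at 0.05. Differences are the first-named group minus the second. The number of arrays limits the precision, and the offset bears on differences of dim probes. The labels do not tie pools to separate litters, so p-values measure the spread between these pools. The fit was tested on simulated data.

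Pools with the same replicate number, taken from the labels, deviated together from their group means (correlations of 0.50 to 0.83 over all genes in every pair), so the number was also fitted as a block. The other alternatives were the normalization, the background, the filter, array weights, the technical arrays, the samples in the fit, the choice of probe, a fold threshold and each pool left out. The estimation of the array weights stopped before its convergence tolerance was reached, and the weights it returned were used.

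The 10 genes and all lists were chosen with earlier results of these data known. Within lists, at most 4 genes with the largest change among those past the threshold in EG in vitro minus Control, and the best known members, were named. Lists were described by counts and medians, with no set test. Motifs were searched as strings in 32851 RefSeq promoter windows. Protein sequences were not analysed here.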

Additional observations from a re-analysis of the deposited data

How the results depend on the processing

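Under 21 alternatives the count of class I genes that fell kept between 7 and 10 of 10 in EG in vitro (7 to 9 when 1 pool was left out) and between 7 and 10 in EG in vivo (7 to 8 when 1 pool was left out). It was 0 between the transfer groups in all 21. H2-D1, H2-T23, B2m, Tap1, Tap2, Psmb8 and Psmb9 passed under all 21 in both comparisons with Control. H2-K1 lost its call under 10 of 21 in EG in vitro (adjusted p up to 0.117) and 8 of 21 in EG in vivo (up to 0.111), and Psmb10 under 7 in EG in vitro (up to 0.0991). Tapbp gained a call under 6 of 20 in each comparison, the stricter filter having dropped its brightest probe, and Psmb10 under 6 in EG in vivo. With the replicate block, 10 fell in each comparison, and no other call changed. No difference from Control reversed. Without background correction the dimmer probes differed less, with -0.47 for Tap1, -0.49 for Psmb8, -0.49 for Tapbp, -0.86 for Psmb9 and -1.20 for Tap2 in EG in vitro; the offset and the background bear on these sizes. Only values of EG in vitro minus EG in vivo changed sign, none of them past the threshold in either form. Tapbp became -0.0015 with the authors' matrix and -0.0018 without background correction, B2m 0.019 with array weights, and H2-T23 -0.0079 with the mean of all probes. With 1 pool left out, the difference between the transfer groups ranged from -0.14 to 0.080 for H2-D1, -0.26 to 0.37 for H2-K1, -0.10 to 0.012 for B2m, -0.26 to 0.0055 for Tap1, -0.14 to 0.23 for Tapbp and -0.36 to 0.12 for Psmb10. The cause was not tested. Among the related lists, a change beyond 1.2-fold left 4 constitutive proteasome genes higher (10 without it) and 2 macrophage genes lower (5 in EG in vitro lung and 6 in EG in vivo lung without it) in each comparison, and in EG in vivo 5 endothelial, 3 epithelial and 2 further class I genes lower (8, 5 and 4 without it). With array weights, which had not fully converged, 7 regulators of class I transcription were higher in EG in vitro (1 without weights). With the replicate block 3 of them were. The fit of replicates 1 and 2 only was added after the data had been seen.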
